A study of Mus musculus with 12 samples.

Results

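Box C/D small nucleolar RNAs (snoRNAs) were followed by small RNA sequencing of hippocampal area CA1 in Kat2a conditional knockout and Control mice. The members were the rows of the deposited misc RNA table that are named Snord or U3 (Rnu3), without the snoRNAs of the Gas5 gene and of the imprinted Snrpn locus. They made up 69 of the 4645 rows of that table, after 73 rows were reduced to 69 by keeping rows of identical counts once. Kat2a cKO mice were C57BL/6J, carried Kat2a fl/fl alleles and were CamKIIα-cre+ (n = 6). Control mice were C57BL/6J with the same Kat2a fl/fl alleles and no Cre (n = 6). All mice were 3 to 5 months old and the tissue was dissected CA1. Kat2a is a histone acetyltransferase, and CamKIIα drives Cre in forebrain excitatory neurons, so the other cells of CA1 keep the gene. In bulk tissue such as this, fewer cells of a type and less RNA per cell cannot be told apart. The labels do not say that each library came from a separate mouse, and p-values measure the spread between these libraries.

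A box C/D snoRNA carries a C box near its start and a D box near its end, which fold together and bind the core proteins Snu13, Nop56, Nop58 and the methyltransferase fibrillarin (Fbl). A stretch just before a D box pairs with ribosomal or small nuclear RNA and sets which ribose is methylated. A few members, U3, U8, U14 and U22 among them, act in the cleavage of the ribosomal RNA precursor, and U13 guides an acetylation in human cells. Most vertebrate box C/D snoRNAs are cut from introns of ribosomal protein genes, translation factor genes or non-coding host genes, while U3, U8 and U13 have their own promoters. Targets are named below from what is known of the human and yeast counterparts.

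Sequences of the members that the results turn on are shown as DNA letters of the GENCODE M21 transcripts (GRCm38), since the genome build of the counts is not given in the sources used here. Capitals mark the first TGATGA, the letters of a C box, and the last CTGA, those of a D box, as matches of letters only. In Snord53 the last CTGA lies in the middle of the transcript. Snord43 and Snord99 had the most reads, Snord93, Snord91a and Snord92 were 3 of the 4 with the smallest p, Snord1b and Snord1c are near copies, Snord53 swung between libraries, and Snord118 is U8.
Snord43: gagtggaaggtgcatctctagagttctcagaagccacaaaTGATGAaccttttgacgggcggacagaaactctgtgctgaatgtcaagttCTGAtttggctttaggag
Snord99: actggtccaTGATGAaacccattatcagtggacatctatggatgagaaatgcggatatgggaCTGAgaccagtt
Snord93: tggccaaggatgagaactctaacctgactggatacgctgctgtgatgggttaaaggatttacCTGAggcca
Snord91a: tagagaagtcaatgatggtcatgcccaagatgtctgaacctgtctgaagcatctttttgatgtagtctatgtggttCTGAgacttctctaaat
Snord92: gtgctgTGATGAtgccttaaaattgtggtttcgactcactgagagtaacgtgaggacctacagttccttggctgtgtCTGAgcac
Snord1b: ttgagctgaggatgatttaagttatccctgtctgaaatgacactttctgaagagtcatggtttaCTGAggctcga
Snord1c: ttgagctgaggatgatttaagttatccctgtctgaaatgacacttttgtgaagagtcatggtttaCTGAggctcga
Snord53: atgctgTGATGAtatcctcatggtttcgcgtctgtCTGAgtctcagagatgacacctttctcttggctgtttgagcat
Snord118: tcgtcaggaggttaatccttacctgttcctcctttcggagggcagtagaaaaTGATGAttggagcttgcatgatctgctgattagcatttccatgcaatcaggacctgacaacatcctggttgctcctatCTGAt
Snord43 lies on chromosome 15 in an intron of Rpl3, Snord99 on chromosome 4 in Snhg12, Snord93 on chromosome 5 in an intron of 2700038G22Rik and Snord91a on chromosome 11 in Tsr1. Snord92 and Snord53 share the host Wdr43 on chromosome 17, Snord1b and Snord1c share 1810032O08Rik on chromosome 11, and Snord118 lies on chromosome 11 in no annotated host. In GENCODE 65 of the 69 members lie inside another gene on the same strand.

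The exact letters TGATGA stood on the transcript strand of 48 of the 69 members (69.6%), of 0 of 42 H/ACA box (Snora) transcripts and of 393 of all 1507 annotated snoRNA transcripts (26.1%). The shorter CTGA stood in 69 of 69 members, in 54.8% of the H/ACA transcripts and in 79.5% of all snoRNA transcripts. In Snord93, Snord91a, Snord1b and Snord1c the first motif was not found in these exact letters. Of the intervals over which reads were counted, 66 of 69 had the length of the RefSeq gene, and 54 were shorter than the GENCODE transcript. The Snord123 row spans 6161 bases, so it is not the snoRNA alone.

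The 12 libraries held 1850184 to 8586979 reads in the misc RNA table in cKO and 1779081 to 5086458 in Control. Kat2a itself had 13 reads over the 6 cKO libraries and 23 over the 6 Control libraries in the table of all RNAs, at 0.95 ± 0.97 CPM and 2.23 ± 2.44 CPM (CPM is the read count scaled to the size of the library, here with TMM factors; errors are SDs over 6 libraries each; p = 0.28 by an exact two-sided permutation test). At this depth a loss of Kat2a was not detectable. Its paralog Kat2b had 15 reads in cKO and 7 in Control (p = 0.42 by the same exact test). CA1 pyramidal genes (Wfs1, Fibcd1, Pou3f1, Camk2a) summed to 15.7 to 26.8 CPM in cKO and to 11.6 to 33.3 CPM in Control. Those of dentate and CA3 neurons ran from 11.1 to 315 CPM in cKO and from 11.4 to 60.6 CPM in Control, and genes of choroid plexus from 14.2 to 534 CPM in cKO and from 18.6 to 151 CPM in Control. Markers of oligodendrocytes, astrocytes, microglia, vessels and blood overlapped between the groups as well, and the part of other cell types in the results was not tested. Identical counts were found in 0 pairs of libraries. The shallowest libraries, cKO 1 and Control 2, stood apart from the others in a set of snoRNAs described below.

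Box C/D snoRNAs took a similar share of the misc RNA reads in both groups. The members held 26.4% to 31.5% of reads in cKO (mean 29.9 ± 1.85%) and 25.7% to 31.6% in Control (29.3 ± 2.19%; SD, n = 6 each). Reads were concentrated in few of them: Snord43 held 31.8% of all member reads, the first 4 members 72.4% and the first 12 93.0%. Per 100 counted bases the order of the first 2 was the same, with mean levels of 189715 CPM for Snord43 and 105386 CPM for Snord99. Snord110 at 49214 CPM and Snord55 at 45850 CPM per 100 bases exchanged their places.

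No member passed the test between groups. In edgeR 66 of the 69 members had enough reads to be tested, and 0 had an adjusted p under 0.05, as was so for 0% of all 1073 tested rows. An unadjusted p under 0.05 was reached by 4 members (6.06%), Snord93, Rnu3a, Snord91a and Snord92, and by 7.18% of all tested rows. Of the 77 rows behind that share 65 were tRNA rows, of which 406 were tested, so the share among rows outside tRNAs was lower. Identical rows were merged for the members but not for this background. With identical rows kept once throughout, 2 members and 27 of all rows had an unadjusted p under 0.05. Copies of a tRNA can share reads, so this background is not one of independent rows. DESeq2 gave 6 members an unadjusted p under 0.05 (9.09%, against 6.8% of all rows) and 0 an adjusted one. The 6 cKO and 6 Control values overlapped for 66 of 66 tested members. Among all rows the groups did not overlap in 0.0932%.

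The fitted levels of the members nevertheless lay mostly on one side. The fitted level was higher in cKO for 59 of 66 members (89.4%) and lower for 7, where 53% of all tested rows were higher. The median log2 fold change of the members was 0.22 (quartiles 0.12 and 0.28, range -0.44 to 0.60), against 0.03 for all tested rows and 0.01 for the rows outside the members, of which 510 of 1007 were higher. The standard errors (SE) of these log2 fold changes ran from 0.13 to 0.99. Some other classes of RNA lay mostly on the same side in this fit. The tRNA rows had 359 of 406 higher (median 0.24), and 269 with library totals alone. The H/ACA and Cajal body RNAs had 13 of 17 higher (0.12), and 5 with totals alone. Both snoRNAs of the Snrpn locus were higher (0.11), and 0 of them with totals alone. The tested rows outside the members and these classes were mostly lower in cKO, with either scaling. The share of 53% over all tested rows thus mixes rows that lay mostly on opposite sides. Near copies among tRNA rows share reads, so these rows are not independent.

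How far the members lay from 0 depended on how libraries were scaled, and all tested rows moved with them. With either scaling the members' median lay above that of all tested rows. The TMM factors used here averaged 0.95 in cKO and 1.05 in Control. With library totals alone the median of all tested rows moved to -0.12, 35.3% of all rows were higher in cKO, and 46 of 66 members were higher with a median of 0.07. Values below are from the fit with TMM factors and are to be read relative to its median of 0.03 for all rows. Errors given after a log2 fold change are SEs. With totals alone 0 members and 1.96% of all rows had an unadjusted p under 0.05.

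**Figure D1:**
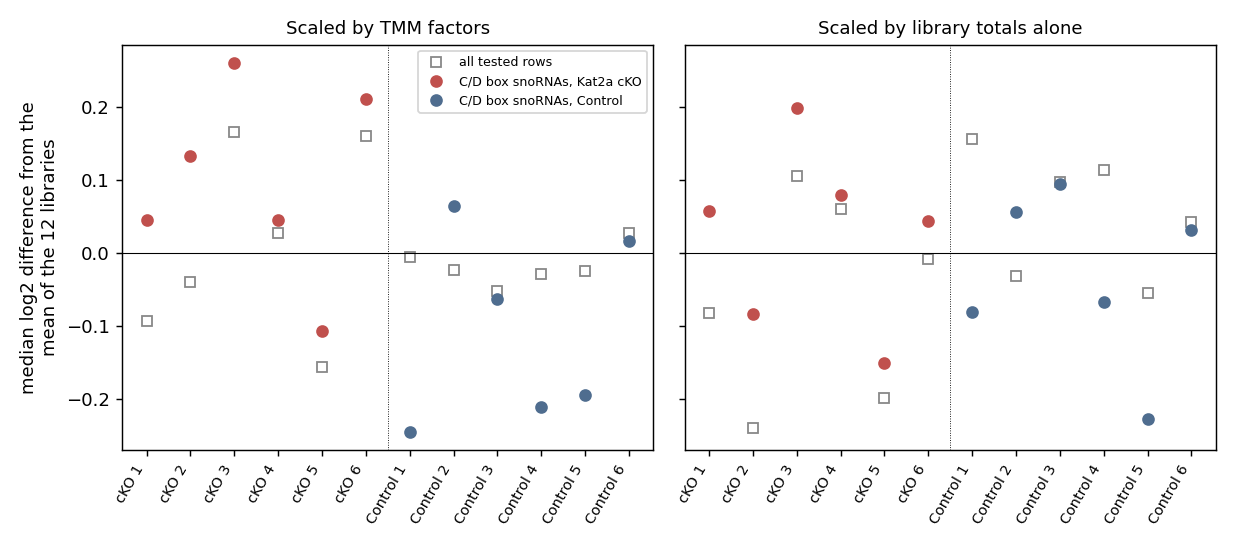
Median over the 66 tested box C/D snoRNAs of the log2 difference from the mean of the 12 libraries, for each Kat2a cKO library (red) and each Control library (blue), beside the same median over all 1073 tested rows (open squares), with TMM factors on the left and library totals alone on the right. With TMM factors 5 of 6 cKO libraries lie above 0 and 4 of 6 Control libraries below; with totals alone the groups mix.

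By library, the members' median log2 difference from the mean of all 12 averaged 0.10 ± 0.13 in cKO and -0.11 ± 0.13 in Control with TMM factors (SD, n = 6 each), and 0.02 ± 0.12 against -0.03 ± 0.12 with totals alone. The highest library of a member was cKO 6 for 14 of 66, cKO 2 and cKO 3 for 12 each, cKO 1 for 11 and Control 2 for 10. The lowest was Control 1 for 21, Control 5 for 20 and cKO 5 and Control 4 for 7 each. The median of cKO 5 lay below 0, and those of Control 2 and Control 6 above 0.

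**Figure D2:**
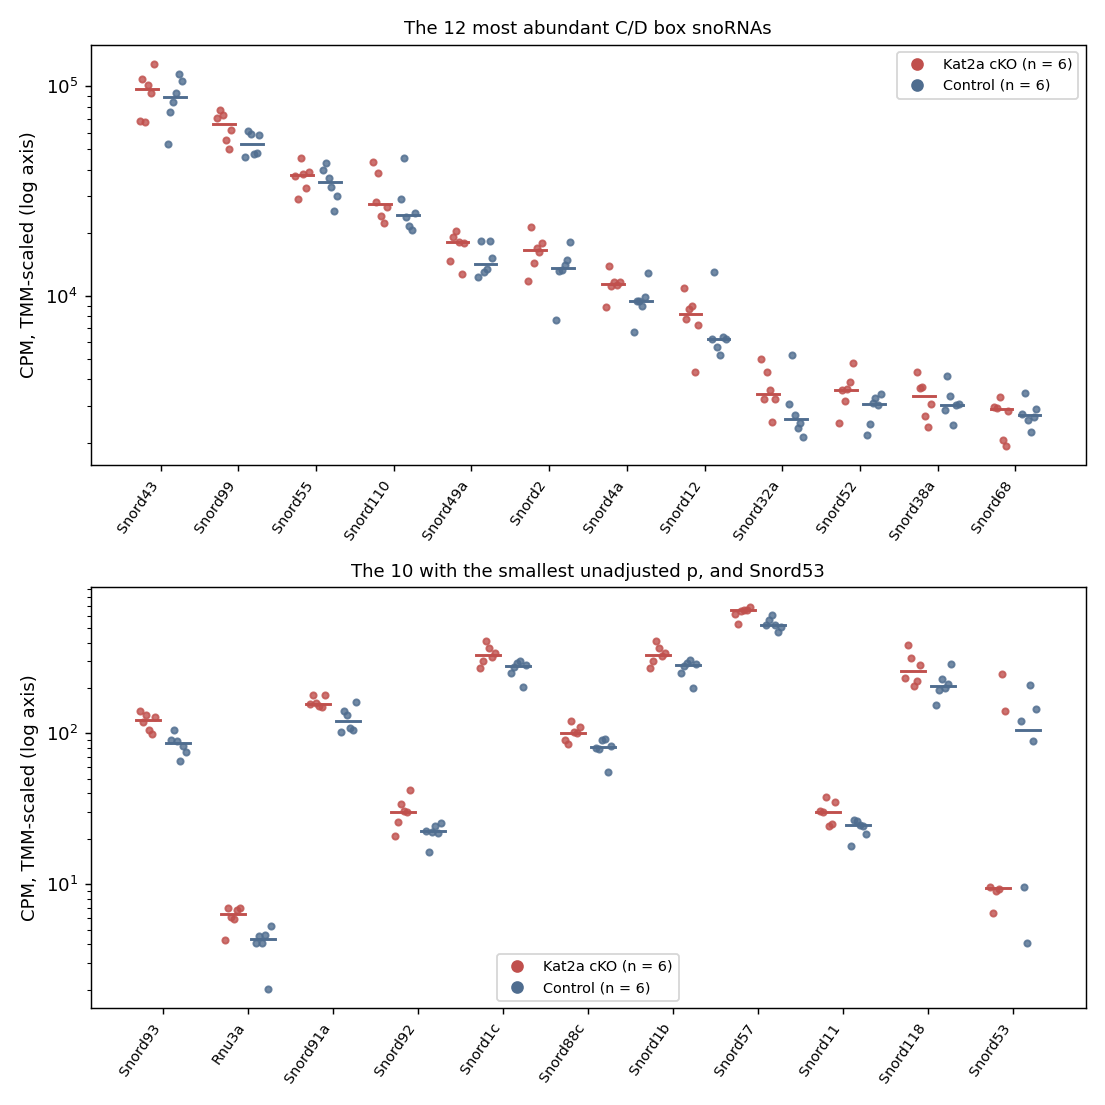
Levels (CPM, TMM-scaled, log axis) of the 12 members with most reads (top) and of the 10 with the smallest unadjusted p together with Snord53 (bottom); each point is a library, Kat2a cKO in red on the left and Control in blue on the right of each pair, and bars are medians. The groups overlap for every snoRNA shown, and Snord53 splits in both groups into libraries at 9.65 CPM or less and libraries at 89.1 CPM or more.

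Of the members that guide 18S ribosomal RNA and not 28S, 15 of 15 tested were fitted higher in cKO, though 13 with library totals alone, and their median log2 fold change was 0.26. Snord32a and Snord68, which guide both, are described after the 28S guides, and Snord68 was fitted lower. Snord43, in an intron of the ribosomal protein gene Rpl3, had 67872 to 128090.0 CPM in the 6 cKO libraries (median 96917), against 53333 to 114231 CPM in the 6 Control libraries (median 88431). The ranges overlapped widely, with cKO 6 highest and Control 1 lowest, and the log2 fold change was 0.11 ± 0.21 (SE, edgeR adjusted p = 0.87). With 1 library left out the fold change ran from -0.03 (without Control 1) to 0.23. Snord110, hosted by the snoRNP protein gene Nop56, had a median of 27333 CPM in cKO (lowest 22379, highest 43484) and of 24390.2 CPM in Control (lowest 20657, highest 45358). Its highest value was that of Control 2 and its log2 fold change 0.15 ± 0.23. With 1 library left out the fold change ran from -0.01 (without cKO 1) to 0.37. Snord57, from another intron of Nop56, had a lowest, median and highest level of 534, 653 and 693 CPM in cKO, against 467, 522 and 606 CPM in Control. All 6 cKO libraries exceeded the Control mean, and the log2 fold change was 0.26 ± 0.14. Snord11, from Nop58, the gene of another core protein, had a median of 30.3 CPM in cKO (lowest 24.2, highest 38.0) and of 24.7 CPM in Control (lowest 17.8, highest 26.6). Here too 6 of 6 cKO libraries exceeded the Control mean, with 0.37 ± 0.20. This held for 10 of 66 tested members (15.2%), and the share over all rows was not counted. The members for which it is stated here and below are among the 10 with the smallest p, so it adds no separate support.

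Snord93, a guide of 18S, had the smallest p of the members. It had 141, 119, 132, 105, 98.4 and 127 CPM in cKO 1 to 6, against 89.7, 105, 89.1, 65.4, 82.8 and 75.4 CPM in Control 1 to 6. The lowest cKO value, that of cKO 5, lay below the highest Control value, that of Control 2, and 6 of 6 cKO libraries were above the Control mean. Its log2 fold change was 0.51 ± 0.18 (SE, unadjusted p = 0.011, edgeR adjusted p = 0.606). Over the 12 libraries the row most like Snord93 was AI506816, a misc RNA row of the same chromosome (Spearman rho = 0.99), then Snord32a (0.85) and Snord88a (0.84). The longest run of letters that Snord93 shares with a GENCODE transcript of AI506816 is 10 bases.

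Of the guides of 28S ribosomal RNA alone 22 of 26 were fitted higher in cKO, 17 with library totals alone, and the median was 0.21. Snord99, in the non-coding host Snhg12, had 50168 to 76817 CPM in the 6 cKO libraries (median 66085), against 46099 to 60959.8 CPM in the 6 Control libraries (median 53347). In cKO 5 of 6 libraries exceeded the mean of Control, and the log2 fold change was 0.27 ± 0.15. Snord55 had a median of 37614 CPM in cKO (lowest 28946, highest 45478) and of 34796 CPM in Control (lowest 25368, highest 42917), a log2 fold change of 0.09 ± 0.16. Snord38a had a lowest, median and highest level of 2359, 3339.8 and 4354 CPM in cKO, against 2433, 3033 and 4159.9 CPM in Control, and a log2 fold change of 0.07 ± 0.18. For neither snoRNA was the difference as large as its error, and both were below 0 with library totals alone (-0.06 and -0.07).

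Snord91a, in the ribosome assembly gene Tsr1, had 149 to 181 CPM in the 6 cKO libraries (median 158), against 102 to 162 CPM in the 6 Control libraries (median 121). Its 6 cKO values were above the Control mean, though Control 6 exceeded 4 of them, and the log2 fold change was 0.38 ± 0.17 (unadjusted p = 0.043, edgeR adjusted p = 0.641). Snord92, in the processome gene Wdr43, had a median of 30.1 CPM in cKO (lowest 20.9, highest 42.3) and of 22.5 CPM in Control (lowest 16.4, highest 25.3). Of its cKO values 5 of 6 exceeded the Control mean, with cKO 6 highest and cKO 1 under most Control libraries, and its log2 fold change was 0.46 ± 0.21 (unadjusted p = 0.046, edgeR adjusted p = 0.641). Snord12, in the non-coding host Zfas1, had a lowest, median and highest level of 4358, 8218 and 10920.1 CPM in cKO, against 5232, 6223 and 12973 CPM in Control. Control 2 was far above the other Control libraries, and the log2 fold change was 0.17 ± 0.25. With 1 library left out the fold change ran from 0.03 to 0.46. Snord52, in 1110038B12Rik, had a median of 3571 CPM in cKO (lowest 2484, highest 4795) and of 3053 CPM in Control (lowest 2174, highest 3397). Here cKO 6 was highest and Control 1 lowest, with a log2 fold change of 0.30 ± 0.18.

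The members with a lower fitted level in cKO among the guides of 28S alone were Snord53, Snord15b, Snord37 and Snord58b. Snord15b (Rps3), Snord37 (Eef2) and Snord58b (Rpl17) had log2 fold changes of -0.15 ± 0.21, -0.03 ± 0.21 and -0.01 ± 0.20, each within its error. Snord53 was named after its values were seen. It had 9.65, 6.44, 9.07, 9.32, 247 and 142 CPM in cKO 1 to 6, against 121, 9.61, 4.11, 208, 89.1 and 145 CPM in Control 1 to 6. It was thus low in cKO 1 to 4 and in Control 2 and 3, and high in the other libraries of both groups, and its log2 fold change of -0.44 ± 0.99 had the largest error of all members. Snord92 of the same host showed no such split (rho = 0.11 over 12 libraries), and the GENCODE sequences of both snoRNAs share a longest run of 12 bases.

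**Figure D3:**
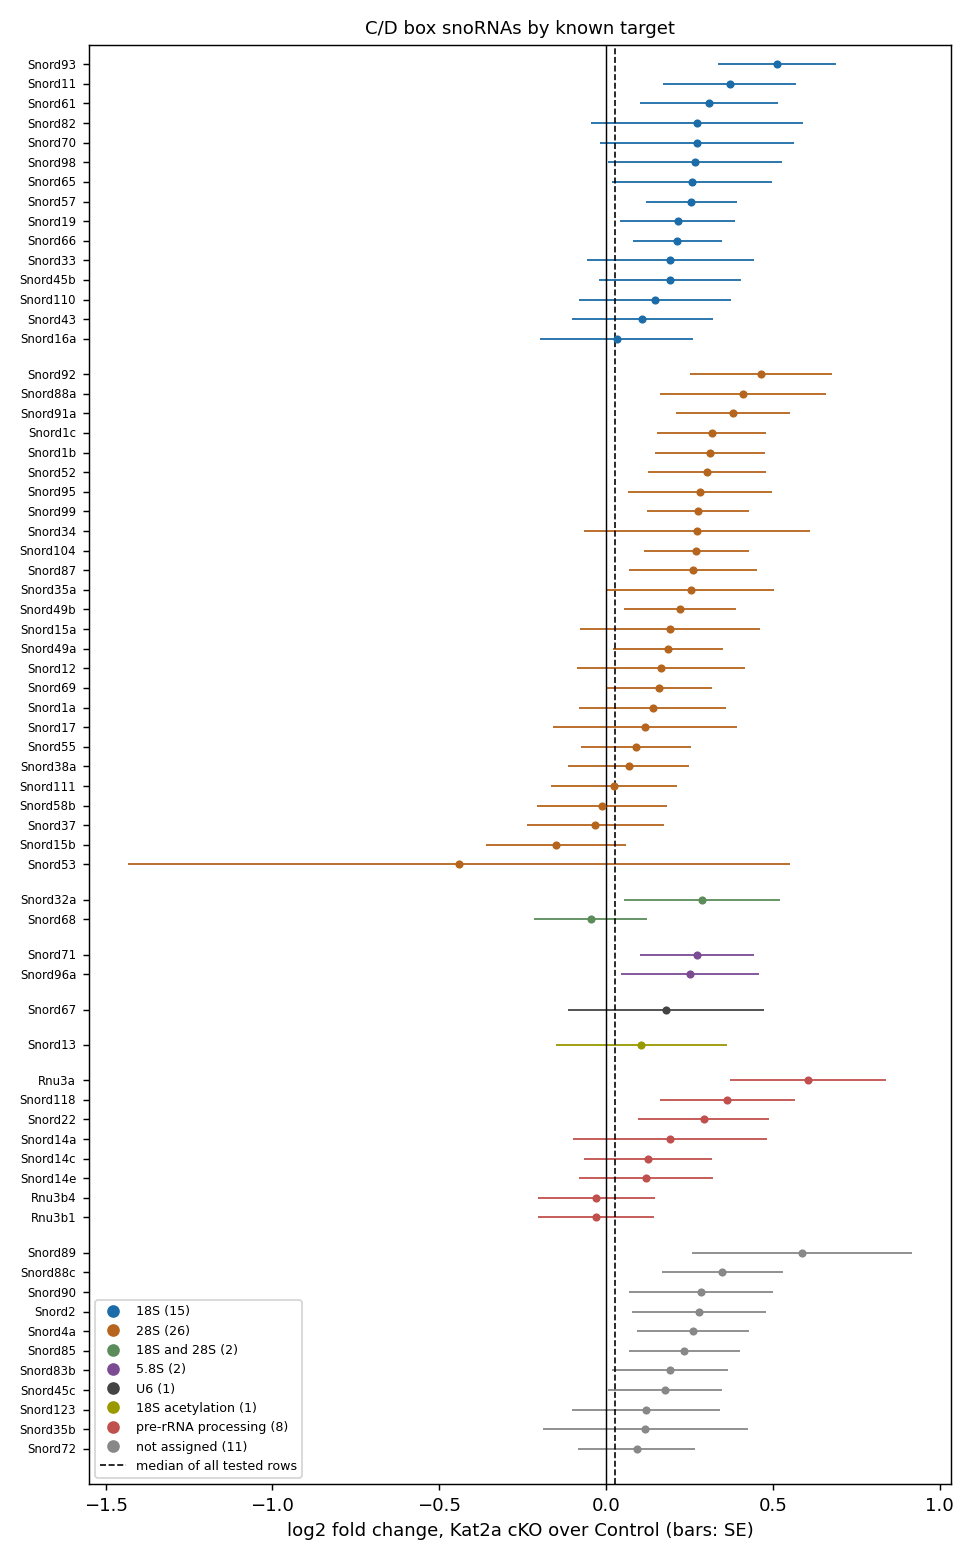
Log2 fold change of each of the 66 tested members (Kat2a cKO over Control, points, with SE as bars) grouped by the RNA that the snoRNA is known to act on; the dashed line is the median of all tested rows (0.03). The 15 guides of 18S alone lie to the right of 0 with these TMM factors (13 with library totals alone), the quartiles of all members are 0.12 and 0.28, and Snord53 has the widest error bar.

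Snord32a and Snord68 are each known to guide methylation in 18S and in 28S. Snord32a, in Rpl13a, had 2503 to 5029 CPM in the 6 cKO libraries (median 3400.1), against 2134 to 5203 CPM in the 6 Control libraries (median 2603). Its highest value was again that of Control 2, and its log2 fold change was 0.29 ± 0.23. With 1 library left out the fold change ran from 0.14 to 0.54. Snord68, in Rpl13, had a median of 2881 CPM in cKO (lowest 1919, highest 3291) and of 2699 CPM in Control (lowest 2239, highest 3427). Its log2 fold change was -0.05 ± 0.17, and with 1 library left out ran from -0.11 to 0.10 (without cKO 5). The guides of 5.8S, Snord71 in Ap1g1 and Snord96a in Rack1, differed by 0.27 ± 0.17 and 0.25 ± 0.21 on the log2 scale. Of the guides of the spliceosomal U6 RNA, Snord67 alone had enough reads for the test. It had a lowest, median and highest level of 76.1, 142 and 227 CPM in cKO, against 57.5, 138 and 164 CPM in Control, with cKO 6 highest and Control 1 lowest, and a log2 fold change of 0.18 ± 0.29. The other U6 guides, Snord8 and Snord7, had 114 and 97 reads in all. Snord8 had a median of 2.52 CPM in cKO (lowest 2.02, highest 3.64) and of 1.65 CPM in Control (lowest 1.03, highest 3.96), and Snord7 a median of 1.94 CPM in cKO (lowest 1.32, highest 3.03) and of 2.08 CPM in Control (lowest 1.01, highest 3.39). A row named AI450353 overlaps Snord7 and had 10129 reads, against 97 for Snord7.

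The snoRNAs that act in precursor cleavage had 6 of 8 higher, 4 with library totals alone, and a median of 0.16. Among the U3 rows Rnu3a was fitted higher, and the Rnu3b rows lay within their error of 0. With TMM factors the 2 lower were Rnu3b1 and Rnu3b4, near copies that count as separate members here. U3 is needed for the release of 18S. Rnu3a, a U3 gene on chromosome 10, had 4.29, 7.001, 6.05, 5.86, 6.73 and 6.95 CPM in cKO 1 to 6, against 4.09, 4.52, 4.11, 4.62, 2.02 and 5.32 CPM in Control 1 to 6. These levels rest on 266 reads over the 12 libraries. The 6 cKO values were above the Control mean, cKO 1 lay within the Control range, and the log2 fold change was 0.60 ± 0.23 (unadjusted p = 0.021, edgeR adjusted p = 0.606). The Rnu3b rows, which are U3 copies within Tex14, had 87.4 to 148 CPM in the 6 cKO libraries (median 133), against 104 to 142 CPM in the 6 Control libraries (median 135), counted here as Rnu3b1. Their lowest values were those of cKO 1 and Control 1, and the log2 fold change was -0.03 ± 0.17, between -0.12 and 0.04 with 1 library left out. The Rnu3b1, Rnu3b2 and Rnu3b3 rows had identical counts and Rnu3b4 differed by 2 reads in all, so which copy gave the reads is uncertain. The GENCODE transcripts of Rnu3a and Rnu3b1 differ by an edit distance of 32 bases and share a run of 50. The interval counted for Rnu3a is 104 bases long, against 215 for Rnu3b1.

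U8 (Snord118), which acts in the maturation of 5.8S and 28S, had a median of 258 CPM in cKO (lowest 206, highest 383) and of 207 CPM in Control (lowest 155, highest 286). The cKO 2 library was highest and Control 1 lowest, and the log2 fold change was 0.36 ± 0.20 (unadjusted p = 0.093, edgeR adjusted p = 0.831). Over the libraries the row most like Snord118 was Rmrp, the RNA of RNase MRP (rho = 0.91), followed by copies of tRNA-Cys (0.87 and 0.84). Rnu3a was closest to Snord52 (0.83) and to a tRNA-Arg copy (0.81), and Rnu3b1, after Rnu3b4, to copies of tRNA-Ser (0.90 and 0.87). U14, which acts in 18S release, has several copies. Snord14c, with counts identical to those of Snord14d in Hspa8, had a lowest, median and highest level of 195, 264 and 297 CPM in cKO, against 185, 212 and 327 CPM in Control, and a log2 fold change of 0.13 ± 0.19. Snord14e, also in Hspa8, had a median of 192 CPM in cKO (lowest 134, highest 216) and of 154 CPM in Control (lowest 129, highest 233), with 0.12 ± 0.20. Snord14a, in Rps13, had a lowest, median and highest level of 10.1, 15.2 and 24.96 CPM in cKO, against 7.32, 12.9 and 22.6 CPM in Control, with 0.19 ± 0.29. U22 (Snord22), in the non-coding host Snhg1, had 7.81 to 13.2 CPM in the 6 cKO libraries (median 9.54), against 6.57 to 10.2 CPM in the 6 Control libraries (median 8.16), and a log2 fold change of 0.29 ± 0.20. U13 (Snord13), the acetylation guide, had a median of 7.08 CPM in cKO (lowest 3.92, highest 11.1) and of 7.02 CPM in Control (lowest 4.55, highest 9.04). Its log2 fold change was 0.11 ± 0.26, and with 1 library left out ran from -0.05 (without cKO 3) to 0.22. For each of these snoRNAs the cKO and Control values overlapped.

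Members with no target assigned here had 11 of 11 tested higher, 8 with library totals alone, with a median of 0.23. The most abundant of them by reads were Snord2, in the translation factor gene Eif4a2, and Snord4a, in Rpl23a. Snord2 had 11824 to 21391 CPM in the 6 cKO libraries (median 16562), against 7701 to 18094 CPM in the 6 Control libraries (median 13668), with a log2 fold change of 0.28 ± 0.20. Snord4a had a median of 11451 CPM in cKO (lowest 8882, highest 13938) and of 9462 CPM in Control (lowest 6715, highest 12821), with 0.26 ± 0.17. Control 1 was the lowest and cKO 2 the highest library for both. Snord88c, in 2410002F23Rik, had a lowest, median and highest level of 84.6, 101 and 121 CPM in cKO, against 55.8, 81.1 and 91.7 CPM in Control. Each of the 6 cKO libraries exceeded the Control mean, and the log2 fold change was 0.35 ± 0.18 (unadjusted p = 0.073). Snord23 in Nop53 stayed under the count filter with 141 reads, at 2.15 to 5.53 CPM in the 6 cKO libraries (median 3.14), against 1.52 to 3.13 CPM in the 6 Control libraries (median 2.03).

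By host, the fitted level was higher in cKO for 14 of 14 tested members in non-coding host genes (median 0.27) and for 12 of them with library totals alone. It was higher for 27 of 29 members in other protein-coding hosts (0.25), and for 23 with totals alone. In ribosomal protein genes it was higher for 14 of 17 (0.12), and for 8 with totals alone, where the median was -0.03. Of the members with no host or their own promoter 4 of 6 were higher (0.19), and 3 with totals alone. These medians were not tested against each other. The host groups follow GENCODE. The non-coding group counts the near copies Snord1b and Snord1c apart and holds the long Snord123 row. It also holds Snord89, its highest value at 0.59, whose known host is given as Rnf149. The 3 snoRNAs of 1810032O08Rik, which RefSeq lists as Snhg16, had a median of 0.31. Snord1b had 269.8 to 409 CPM in the 6 cKO libraries (median 332), against 201 to 306 CPM in the 6 Control libraries (median 284), with a log2 fold change of 0.31 ± 0.17. Snord1c had a lowest, median and highest level of 269, 329.9 and 407 CPM in cKO, against 202, 281 and 304 CPM in Control, with 0.32 ± 0.16. Both ranked the 12 libraries in the same order (Spearman rho = 1), and the printed sequences differ by an edit distance of 2 bases, so their reads cannot be assigned with certainty. Snord1a, whose edit distance from Snord1b is 28 bases, had a median of 30.0 CPM in cKO (lowest 24.8, highest 40.4) and of 26.1 CPM in Control (lowest 19.7, highest 41.3), with 0.14 ± 0.22. The row of the host 1810032O08Rik, which spans Snord1a, had 1512 reads, against 1511 for Snord1a.

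The 3 snoRNAs of 2410006H16Rik had a median of 0.22. Snord49a had a lowest, median and highest level of 12793, 18016 and 20372 CPM in cKO, against 12351, 14258 and 18347 CPM in Control, with a log2 fold change of 0.19 ± 0.17. Snord49b had a median of 1596 CPM in cKO (lowest 1120.2, highest 1859.8) and of 1373 CPM in Control (lowest 960.0, highest 1538), with 0.22 ± 0.17. Snord65 had 18.9 to 31.6 CPM in the 6 cKO libraries (median 20.9), against 14.6 to 27.2 CPM in the 6 Control libraries (median 18.7), with 0.26 ± 0.24. Snord49a and Snord49b followed each other over the libraries (rho = 0.86), and Snord65 followed neither closely (0.20 and 0.36).

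The 4 snoRNAs of Rpl13a had a median of 0.26, and each was highest in Control 2 among the Control libraries. Snord34, Snord33 and Snord32a were also highest in cKO 1 among the cKO libraries, and Snord35a was not. Snord34 had 3742, 1693, 2073, 1196, 1147 and 1293 CPM in cKO 1 to 6, against 1354, 3194, 1094, 1084, 1137 and 1363 CPM in Control 1 to 6. The cKO 1 and Control 2 libraries were the highest in their groups, and the log2 fold change of 0.27 ± 0.34 became -0.09 without cKO 1 and 0.65 without Control 2. Snord33 had a median of 672 CPM in cKO (lowest 496, highest 1152) and of 555 CPM in Control (lowest 461, highest 1031). Its log2 fold change was 0.19 ± 0.25, and with 1 library left out ran from -0.02 (without cKO 1) to 0.43. Snord35a had a lowest, median and highest level of 19.6, 26.5 and 29.2 CPM in cKO, against 15.3, 19.9 and 39.0 CPM in Control. Its log2 fold change was 0.25 ± 0.25, and with 1 library left out ran from 0.17 to 0.52. The pairwise rho among the 4, Snord32a included, ran from 0.65 to 0.94. Snord82, in the nucleolin gene Ncl, followed Snord34 more closely (0.95) than its Rpl13a neighbours did. These had 0.94 (Snord33), 0.80 (Snord35a) and 0.70 (Snord32a). Snord110 in Nop56 (0.92) came next after Snord33. The same 2 libraries were the shallowest, with 1850184 reads in cKO 1 and 1779081 in Control 2, against 3166888 or more in every other. Whether depth or another property of these libraries bears on these values was not tested.

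**Figure D4:**
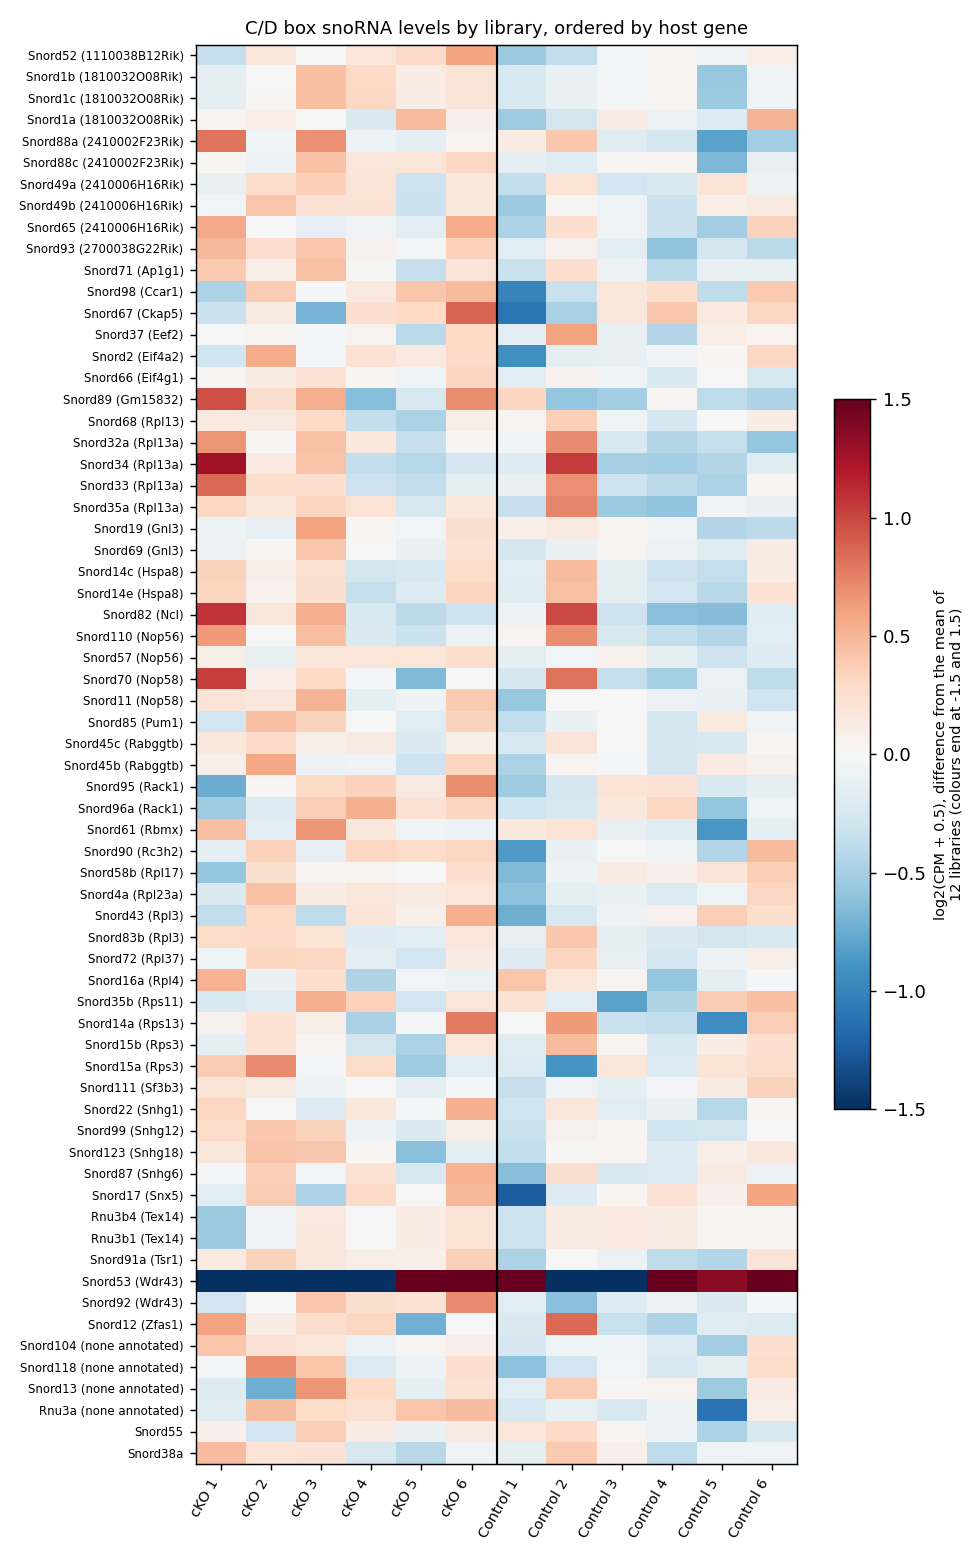
Level of each of the 66 tested members (rows, ordered by the host gene in parentheses, where one is shown) in each library (columns, Kat2a cKO left of the line, Control right), as the difference of log2(CPM + 0.5) from the mean of the 12 libraries; red is higher and blue lower. Snord34, Snord33 and Snord32a of Rpl13a, with Snord82, Snord110, Snord70 and Snord12, are red in cKO 1 and Control 2, and Snord53 splits the libraries of both groups.

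Without both of those libraries, a choice made after these values were seen, 66 of 68 tested members were fitted higher in cKO, as were 67.7% of all rows, and the median was 0.33, against 0.14 for all rows. An unadjusted p under 0.05 was then reached by 17 of 68 members and by 8.14% of all 1094 rows. Without Control 2 alone it was reached by 13 members and by 2.64% of all rows. No member had an adjusted p under 0.05 in either fit. Over all 24 pairs of members that share a host the median rho was 0.59 (range -0.38 to 1). These include the near copies Snord1b and Snord1c, Snord88a and Snord88c, and the Rnu3b rows, which lie within Tex14 while U3 has its own promoter. Without these pairs the median was 0.55 over 21 pairs (range -0.38 to 0.99), against 0.29 over the 2121 other pairs, where all members share the same libraries and scaling. The lowest pair was Snord43 with Snord83b of Rpl3 (-0.38), and Snord95 and Snord96a of Rack1 were close to each other (0.92). Across the 66 members the log2 fold change had a rho of 0.03 with the log2 mean CPM and of -0.04 with the counted length, as descriptions over genes that share libraries.

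The table of all RNAs counts the same members as whole transcript rows, and gave another picture. Its columns could be assigned to groups only. All 69 members have a row there, with 0% to 191% of their misc RNA reads (median 1.28%). Snord43 had 1004 reads there against 4651977 in the misc RNA table, Snord104 32805 against 49427, Rnu3a 387 against 266, and Snord93 0 against 4983. How reads were divided between rows is not given in the sources used here. Both tables allowed a test for 40 members, of which 24 were higher and 16 lower in cKO in the table of all RNAs, where 47.6% of all 1846 rows were higher. The median of the 40 was 0.05 there, against -0.02 for all rows, while in the misc RNA table the same 40 had 34 higher and a median of 0.22.

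**Figure D5:**
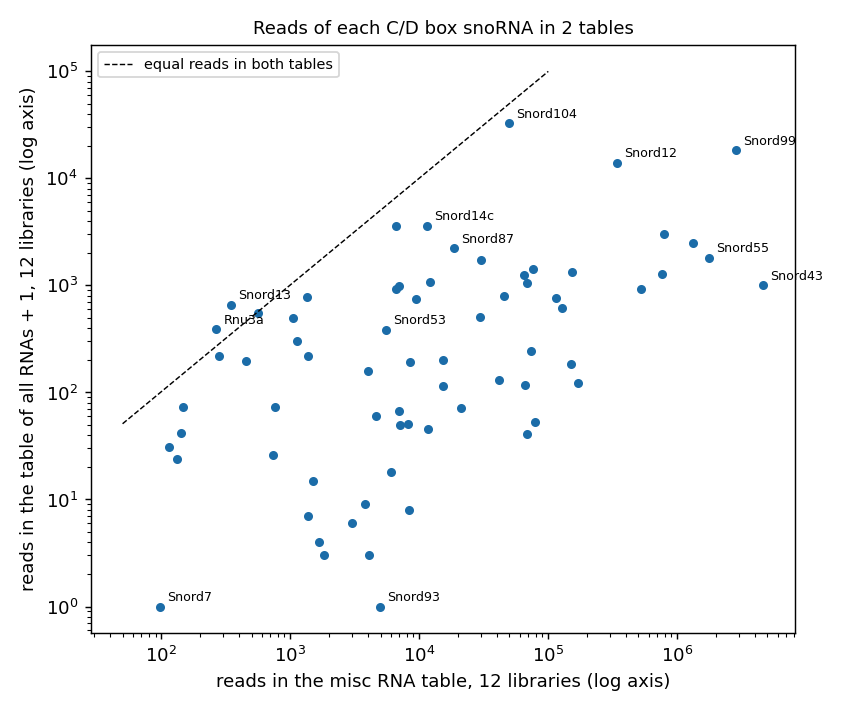
Reads of each of the 69 members summed over the 12 libraries in the misc RNA table (horizontal, log axis) and in the table of all RNAs plus 1 (vertical, log axis); the dashed line marks equal reads. Snord13 and Rnu3a lie above the line and the other members under it, and Snord93 and Snord7 have 0 reads in the table of all RNAs.

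No member passed there either (edgeR, 0 adjusted, smallest adjusted p = 0.9999), and 1 had an unadjusted p under 0.05, against 4.39% of all rows. That member was Snord87, a 28S guide in Snhg6, with 63.2 to 114 CPM in cKO (median 88.8) and 56.2 to 84.0 CPM in Control (median 62.6), a log2 fold change of 0.44 ± 0.19 there and of 0.26 ± 0.19 in the misc RNA table. Rnu3a had -0.29 ± 0.32 there, on the other side of 0 from its 0.60 ± 0.23 in the misc RNA table. Snord53 had -1.19 ± 0.65 there, Snord118 0.37 ± 0.22 and Snord99 0.17 ± 0.24. Snord93, Snord91a and Snord92 were under the count filter of that table.

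The proteins of the pathway left few reads in these libraries, in which reads on messenger RNAs are fragments. The 4 core protein genes Fbl, Nop56, Nop58 and Snu13 had 39 reads in all in cKO and 57 in Control, and Nop58 had 8 against 25. The 10 assembly factor genes, such as Nufip1, which helps load the core proteins, and Tgs1, which modifies the cap of U3 and U8, had 134 reads in cKO and 133 in Control. The 13 genes of U3 processome proteins, such as Rrp9, a U3-specific protein, and Utp15, had 324 and 319. No gene of these lists passed the count filter, so their levels could not be compared. Of 45 host genes 41 have a row and 8 had enough reads, in 10 transcript rows. Of these rows 5 were higher and 5 lower in cKO, 0 had an unadjusted p under 0.05 by edgeR, against 4.39% of all rows, 0 were called by DESeq2, and the median was 0.00 (range -0.52 to 0.37). Both ends of this range were transcript rows of the same gene, Rabggtb. Hspa8, the host of U14 copies, had -0.02 ± 0.28, Ncl 0.02 ± 0.29, Eef2 -0.03 ± 0.24 and Snhg12 -0.10 ± 0.34 (SE). In the misc RNA table the row named Rabggtb overlaps Snord45c, with 9097 reads against 4047 for Snord45c, and reads of the overlap cannot be told apart.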

How the data were processed

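Small RNA was sequenced from dissected CA1 of 6 Kat2a cKO and 6 Control samples. Per the labels' protocols, libraries came from total RNA (TRI Reagent, DNase, then a second phenol-chloroform step), by way of an Illumina small RNA kit and a 150 bp band cut from a gel. CASAVA is named in the submitters' processing notes. Aligner, annotation and genome build are not given in the sources used here. The authors deposited raw read counts per row in tables of all RNAs, miRNAs and misc RNAs, and the reads carry no molecular identifiers, so that repeated copies count as reads. Group means and fractions that the authors deposited beside the counts were not used.

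From the 4645 rows of the misc RNA counts, edgeR 4.0.16 (R 4.3.3) was run with filterByExpr, TMM factors and the quasi-likelihood test (two-sided, group as the term, n = 6 each). Benjamini-Hochberg adjustment ran over all 1073 tested rows with a threshold of 0.05. The table of all RNAs was fitted in the same way. DESeq2 1.42.0, other scalings, filters and left-out libraries were alternatives. Scripts were tested on simulated data. Levels (CPM) are TMM-scaled, with 0.5 CPM added on log2 scales. Spearman correlations are descriptions over 12 libraries.

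Members and gene lists were chosen with earlier results of these data known. Levels are given for the 12 members with the highest mean CPM, the 10 with the smallest p, U3, U8, U13, U14, U22 and U6 guides, and hosts with 3 or more tested members. Of these, Snord93, Rnu3a and Snord34 are given library by library, the others as lowest, median and highest of each group. Snord53, Snord87 and other members named outside this rule were chosen after their values were seen.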

Additional observations from a re-analysis of the deposited data

Results flagged for a closer look

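In 12 of the 78 groups of 6 libraries that were checked, over the named members, an outermost library stood apart from the others by a gap that took up more of the group's range than Dixon's 95% critical value for 6 samples allows. Chance alone gives about 1 in 20, or 3.9 groups. These members share libraries, so the 12 are not independent.

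Control 2 was the outermost library in 6 of these groups, each time the highest. For Snord34 it had 3194 CPM, with the next Control library at 1363 CPM (gap 0.868 of the range), and for Snord12 12973 and 6346 CPM (0.856). The same held for Snord32a with 5203 and 3045 CPM (0.703), Snord35a with 39.0 and 22.5 CPM (0.697), Snord110 with 45358 and 28865 CPM (0.668) and Snord33 with 1031 and 651 CPM (0.666). Among the cKO libraries cKO 1 was highest for Snord34, with 3742 CPM and the next at 2073 CPM (0.643). These libraries had the fewest reads.

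The others were lowest libraries. Snord35a had 19.6 CPM in cKO 5, with the next cKO library at 26.0 CPM (0.669). Rnu3b1 and Rnu3b4 each had 104 CPM in Control 1, with the next at 129 CPM (0.673 each). In Control 5 Snord88c had 55.8 CPM, with the next at 78.6 CPM (0.634), and Rnu3a had 2.02 CPM, with the next at 4.09 CPM (0.628).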

How the results depend on the processing

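No member had an adjusted p under 0.05 under any alternative, and the smallest adjusted p of a named member in any of them was 0.305 (edgeR or DESeq2). Of the 66 tested members 4 had an unadjusted p under 0.05, beside 77 of all rows. This count became 0 with library totals alone (21 of all rows), 2 with identical rows kept once (27), 7 with the sets of replicate numbers (1 to 3 and 4 to 6) as a covariate (41), 7 with numbers 4 to 6 alone (67) and 17 without both shallowest libraries (89). Leaving out 1 library at a time gave 2 to 13: 2 without cKO 3 (67 of all rows), Control 1 (30) or Control 5 (67), 9 without cKO 5 (80) and 13 without Control 2 (29). The number of rows tested also differs between these fits. The members' median log2 fold change of 0.22 became 0.071 with totals alone, where that of all rows was -0.12. It became 0.40 with numbers 1 to 3 alone, and ran from 0.14 to 0.31 with 1 library left out. Between 56 and 65 members then had a higher fitted level in cKO. The cause of these shifts was not tested. With the replicate block, 59 members were higher, with a median of 0.22, 3 unadjusted p under 0.05 and 0 calls. The numbers share no stated source, and same-numbered libraries correlated at -0.16 to 0.42, with 1 of 6 closest to its own number. Single values crossed 0 in 38 of 962 combinations of gene and setting, over 13 of 37 genes. With totals alone these were Snord43 (-0.040), Snord55 (-0.058), Snord38a (-0.074), Snord14c (-0.020), Snord14e (-0.026), Snord1a (-0.0084) and Snord13 (-0.042). Snord68 became 0.035 with no count filter, 0.23 with numbers 1 to 3 alone and 0.038 without both shallowest libraries. Rnu3b1 and Rnu3b4 became 0.048 and 0.049 with no filter, 0.027 and 0.029 with numbers 1 to 3, both 0.069 with numbers 4 to 6 and both 0.12 without both shallowest libraries, and Snord38a became -0.061 with numbers 4 to 6. With 1 library left out, Rnu3b1 ran from -0.12 to 0.043, Rnu3b4 from -0.12 to 0.045, Snord68 from -0.11 to 0.10, Snord34 from -0.086 to 0.65, Snord33 from -0.023 to 0.43, Snord110 from -0.012 to 0.37, Snord43 from -0.027 to 0.23, Snord38a from -0.059 to 0.23 and Snord13 from -0.050 to 0.22. Further alternatives were chosen after seeing the data: rows over 1% of reads left out of the scaling, U3b rows left out, near-identical copies counted once, and both shallowest libraries left out. Low reads limit Rnu3a, Snord8 and Snord7.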
